A study of Mus musculus with 6 samples.

Results

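The clonotypes described here are the N-added *Trdd2* rearrangements of the T cell receptor δ chain that read *Trdd2* in its GGI frame. A clonotype was a CDR3 nucleotide sequence with its V and J segments. It was counted when the annotation joined *Trdv1* or *Trdv5* to *Trdd2* and *Trdj1*, placed at least 1 inserted base between the segments, and translated to a CDR3 that held the residues GGI (glycine, glycine, isoleucine) but neither EGY nor RRD, the motifs of the other frames. By this rule, 487 of the 1936 *Trdv1* and *Trdv5* clonotypes were GGI members, 268 with *Trdv1* and 219 with *Trdv5*. They held 184519 of 691707 reads. Of the other N-added *Trdd2* clonotypes, 349 carried EGY, 271 carried RRD, 466 carried no motif and 15 carried more than 1.

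The δ chains came from γδ T cells of peripheral lymph nodes (pLNs) of B6.Cg-Tcrgtm1lku mice. Both groups carry this deletion of Vγ4 and Vγ6, so there was no wild-type repertoire to compare with. pLN cells were stimulated with PMA and ionomycin, stained by an IL-17 secretion assay and sorted by FACS into IL-17-secreting (IL-17pos) and non-secreting (IL-17neg) γδ T cells, with 3 samples each, numbered 13-01, 20-01 and 27-01 in both groups. The antibodies listed for the sort recognise TCRγδ, TCRβ and CD3 but no single Vγ chain, and the γ chain of a clonotype is not known. The mice were adult by the study's text, with no age in weeks given for this experiment, and the labels do not say what the numbers mean, so p-values describe the spread between these samples, which may be technical. Only δ chain transcripts were amplified, so the labelled cell type could not be checked against other markers. The libraries held 95803 to 142169 reads, and 166 to 699 *Trdv1* and *Trdv5* clonotypes per sample, with 699 and 648 in the 27-01 samples and 166 to 276 in the other 4. Of the GGI members, 49, 63 and 170 were found in the IL-17neg samples 13-01, 20-01 and 27-01, and 49, 61 and 164 in the IL-17pos samples of the same numbers.

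A T cell builds its δ chain by joining a V, 1 or more D and a J segment, and the CDR3 that spans the joins is the most variable loop of the receptor. Exonucleases trim the segment ends and terminal deoxynucleotidyl transferase (TdT) adds N nucleotides without a template, so N additions mark joins made while TdT was active, which in mice is mainly after birth. Because bases are gained and lost on both sides, a D segment can be read in any of its frames, and the frame decides which residues sit in the middle of the loop. Mouse γδ T cells can also use *Trdd1* and *Trdd2* in tandem.

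The germline segments show where the motif comes from. They were read from RefSeq on GRCm38, and for the V segments from the conserved cysteine codon to the coding end. In *Trdd2* the GGI codons are in capitals, and the other segments are shown because their ends border the inserted bases.
*Trdd2* (chr14:54122226-54122241, plus strand, the whole D segment): atcGGAGGGATAcgag
*Trdd1* (chr14:54113468-54113476, plus strand, the whole D segment): atggcatat
*Trdv1* (chr14:53882205-53882217, plus strand, the coding end of the V exon): tgtggagggaaag
*Trdv5* (chr14:54148662-54148676, minus strand, the coding end of the V exon): tgtgcctcggggtat
*Trdj1* (chr14:54123138-54123157, plus strand, the start of the J segment): ctaccgacaaactcgtcttt

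The members that led each sample, spread over most samples or reached 10 reads in more than 1 sample are given from the cysteine codon to the end of the CDR3, with the GGI codons in capitals. Everything before the capitals belongs to V, inserted and 5′ *Trdd2* bases, and everything after them to 3′ *Trdd2*, inserted and *Trdj1* bases.
GGI-1 (*Trdv1*, most abundant in IL-17neg 20-01): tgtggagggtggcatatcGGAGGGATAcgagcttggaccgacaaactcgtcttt
GGI-2 (*Trdv5*, most abundant in IL-17neg 13-01): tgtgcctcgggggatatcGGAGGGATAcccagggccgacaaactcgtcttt
GGI-3 (*Trdv5*, found in 3 samples): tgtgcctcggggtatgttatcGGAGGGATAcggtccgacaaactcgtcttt
GGI-4 (*Trdv1*, found in most samples): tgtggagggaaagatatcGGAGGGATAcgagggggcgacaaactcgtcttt
GGI-5 (*Trdv5*, most abundant in IL-17pos 13-01): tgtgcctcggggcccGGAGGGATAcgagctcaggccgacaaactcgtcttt
GGI-6 (*Trdv5*, most abundant in IL-17pos 20-01): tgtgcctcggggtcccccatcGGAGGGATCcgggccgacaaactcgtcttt
GGI-8 (*Trdv5*, most abundant in IL-17pos 27-01): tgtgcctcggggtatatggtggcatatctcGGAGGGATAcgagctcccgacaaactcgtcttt
GGI-9 (*Trdv1*, above 10 reads in 2 samples): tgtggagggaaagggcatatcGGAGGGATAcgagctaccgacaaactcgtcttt
GGI-10 (*Trdv1*, most abundant in IL-17neg 27-01): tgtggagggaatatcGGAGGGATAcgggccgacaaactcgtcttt

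GGI members took a large share of every library. They made up 22.3%, 37.1% and 22.6% of *Trdv1* and *Trdv5* reads in IL-17neg 13-01, 20-01 and 27-01, and 30.8%, 22.4% and 23.5% in the IL-17pos samples. The groups overlapped, with means of 27.3% ± 8.47 (SD, n = 3) in IL-17neg and 25.6% ± 4.58 (SD, n = 3) in IL-17pos samples. The difference of -1.78 percentage points was smaller than the spread within either group (exact two-sided permutation test, p = 0.9, adjusted p = 1 over 9 comparisons). By clonotypes, members made up 24.9%, 28.5% and 24.3% in IL-17neg and 29.5%, 22.1% and 25.3% in IL-17pos samples, a difference of -0.257 percentage points (exact permutation test, p = 1). With each shared clonotype counted only where most abundant this difference was -2.63 (exact permutation test, p = 0.7). The same was seen when only N-added *Trdd2* reads were counted, of which members held 34.8% ± 9.18 (SD, n = 3) in IL-17neg and 34.0% ± 6.53 (SD, n = 3) in IL-17pos samples. With 3 against 3 samples there are 20 assignments and no test of the groups can give a p below 0.1.

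Within each sample, GGI was the most used of the 3 motifs. Of N-added *Trdd2* reads, 28.9%, 45.4% and 30.1% were GGI in IL-17neg 13-01, 20-01 and 27-01, against 22.9%, 17.6% and 19.9% for EGY and 8.37%, 11.9% and 19.5% for RRD. In the IL-17pos samples the GGI shares were 41.6%, 30.2% and 30.3%, those of EGY 26.0%, 21.1% and 22.0%, and those of RRD 12.6%, 16.6% and 18.5%. Reads with none of the motifs made up 39.9%, 24.5% and 29.5% in IL-17neg and 18.2%, 31.8% and 27.9% in IL-17pos samples. The motifs do not give the frame of these clonotypes. They exceeded GGI in IL-17neg 13-01 and IL-17pos 20-01, by reads and by clonotypes. GGI exceeded EGY by 12.8 percentage points on average (6.03 to 27.8, higher in 6 of 6 samples) and RRD by 19.8 (10.6 to 33.4, higher in 6 of 6). When each clonotype was counted once, GGI still exceeded EGY by 10.6 and RRD by 16.5 percentage points, in 6 of 6 samples each. Each of these 4 differences had p = 0.031 in an exact sign-flip permutation test over the 6 samples, the smallest that 64 assignments allow, and an adjusted p of 0.0677 over 13 within-sample comparisons. None of the 13 therefore passed 0.05 after adjustment. Among clonotypes with at least 10 reads, GGI exceeded EGY by 11.3 percentage points but in 5 of 6 samples, because IL-17neg 13-01 turned to -2.94 (exact permutation test, p = 0.0625).

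The motif was mostly germline *Trdd2* sequence. The 9 bases of the germline GGI codons were intact in 415 of 487 members (85.2%), and 14 codon versions were seen in all. The longest exact stretch of *Trdd2* had a median of 14 of 16 bases. The whole segment was kept in 153 members (31.4%), its 5′ end in 304 (62.4%) and its 3′ end in 264 (54.2%). The stretch lay in the GGI frame in 482 members, and in the remaining 5 the motif was read from other bases. This count and that of intact codons are favoured by the rule, which requires an assigned *Trdd2* and the residues GGI. The untrimmed frame reads IGGIR, in which isoleucine comes from the 5′ end and arginine from the 3′ end of *Trdd2*. Isoleucine preceded the motif in 289 members (59.3%), arginine followed it in 365 (74.9%), and 217 (44.6%) had the whole IGGIR. After isoleucine, the residues most often found before the motif were glycine (36 members), serine (22), proline (21) and threonine (21). After it, proline (21) and leucine (20) came next to arginine. GGI-1, GGI-4 and GGI-9 keep all 16 bases, whereas GGI-2 keeps 13 and continues with proline after the motif, and GGI-5 lacks the 5′ end and has proline before it. The annotation assigned more than 16 bases to *Trdd2* in 136 members (27.9%), so some bases next to the segment were counted as D and not as insertions, and the insertion counts leave them out. The mean length assigned to *Trdd2* was 15.3 ± 0.436 bases (SD, n = 3) in IL-17neg and 15.0 ± 0.415 (SD, n = 3) in IL-17pos samples (exact permutation test, p = 0.6).

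Inserted bases lay mainly on the V side. Of the 487 members, 250 (51.3%) had insertions at both joins, 179 (36.8%) only between V and *Trdd2*, and 58 (11.9%) only between *Trdd2* and *Trdj1*. The mean number of V-D insertions was 6.94, 5.90 and 6.06 bases in IL-17neg 13-01, 20-01 and 27-01 and 6.47, 6.05 and 4.85 in the IL-17pos samples. For D-J insertions the means were 2.78, 1.92 and 1.86 bases, then 1.96, 1.98 and 1.68. The V side was longer by 4.02 bases on average (3.17 to 4.51, in 6 of 6 samples; exact permutation test, p = 0.031, adjusted p = 0.0677). Without the members that hold at least 5 consecutive *Trdd1* bases, all of which have at least 5 V-D bases, it was longer by 2.07 bases on average, in 6 of 6 samples. This selection shortens the V side by its construction. The longest insertion was 25 bases between V and D and 11 between D and J. In the IL-17 groups, V-D insertions averaged 6.30 ± 0.557 (SD, n = 3) in IL-17neg and 5.79 ± 0.842 (SD, n = 3) in IL-17pos samples (exact permutation test, p = 0.5; 0.395 higher in IL-17pos samples without the same members), and D-J insertions 2.18 ± 0.512 and 1.87 ± 0.171 (exact permutation test, p = 0.6). By clonotypes both differences were within the spread of the samples. By reads, the D-J means were 2.73, 2.75 and 1.78 bases in IL-17neg and 1.73, 1.65 and 1.37 in IL-17pos samples, without overlap (difference -0.835; exact permutation test, p = 0.1, adjusted p = 0.45). In the tables of the other read of each pair they were 2.25, 2.29 and 1.83, then 1.80, 1.82 and 1.45, also without overlap (difference -0.430; exact permutation test, p = 0.1, adjusted p = 0.9). With at least 10 reads (-0.295; exact permutation test, p = 0.3) and with at least 2 reads (-0.154; exact permutation test, p = 0.5) the groups overlapped. The levels themselves depend on how insertions are counted. A recount matched V from the first CDR3 base and *Trdj1* from the last, each up to a mismatch. Between them it took the longest *Trdd2* stretch. All other bases counted as inserted, also germline V or J bases beyond a mismatch. In GGI-16, which differs from germline *Trdv5* in the cysteine codon, V-D bases were 3 by the borders and 22 by the recount. V-D means by the recount were 9.24, 8.38 and 9.03 bases in IL-17neg and 8.63, 8.43 and 7.87 in IL-17pos samples. The D-J means by this recount were 6.06, 4.51 and 5.61, then 5.69, 3.74 and 4.60, and the V side remained longer by 3.56 bases on average. G and C made up 60.3% to 67.7% of the V-D bases and 62.0% to 79.2% of the D-J bases over the 6 samples. By the annotated borders, GGI-2 has no base inserted at the V side and 6 at the J side, and by the recount 3 and 6. GGI-8 has 8 and 0 by the borders and 13 and 3 by the recount.

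Many of the longer V-D insertions held a stretch that matches *Trdd1*. Of the 236 members with at least 5 inserted V-D bases, 106 (44.9%) held 5 or more consecutive bases of the 9-base *Trdd1* there. They included 45 of 104 with *Trdv1* and 61 of 132 with *Trdv5*. The search covered only bases that the annotated borders leave as V-D insertions. Stretches that run into bases assigned to a segment could therefore be cut or missed, also in the group shares. By these borders GGI-8 has a 6-base stretch, while GGI-1 and GGI-9 have 4 and 3 bases and were not counted. The printed sequences of these members match *Trdd1* over a longer stretch. On the J side, 0 of 60 members with at least 5 inserted bases held such a stretch, which allows a share of up to 5% by counting error alone. V-D insertions were longer on average. Among insertions of 5 to 7 bases, 13 of 85 (15.3%) held the stretch on the V side and 0 of 56 on the J side. The rate of such matches by chance, and with it the origin of these bases, was not tested. The EGY and RRD members of the same tables held it in 98 of 179 (54.7%) and 64 of 129 (49.6%).

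Among the GGI members, the share with the *Trdd1* stretch was lower in each IL-17pos sample than in each IL-17neg sample. In IL-17neg 13-01, 20-01 and 27-01 it was found in 14 of 28, 15 of 26 and 44 of 80 members with at least 5 V-D bases (50.0%, 57.7% and 55.0%). In the IL-17pos samples it was found in 9 of 26, 10 of 33 and 23 of 73 (34.6%, 30.3% and 31.5%). The groups did not overlap, with means of 54.2% ± 3.90 (SD, n = 3) and 32.1% ± 2.23 (SD, n = 3), a difference of -22.1 percentage points (exact two-sided permutation test, p = 0.1, the smallest possible with these samples; adjusted p = 1 over this and the 9 other group comparisons). This comparison was chosen after its values were seen. Among members with at least 10 reads the shares were 60.0%, 50.0% and 57.1% in IL-17neg and 41.2%, 35.3% and 42.9% in IL-17pos samples, again without overlap. With at least 2 reads they were 63.6%, 46.2% and 56.9%, then 47.4%, 31.6% and 39.6%, and the groups overlapped (difference -16.0 percentage points; exact permutation test, p = 0.2). With a stretch of at least 4 bases as the criterion, the difference fell to -10.9 percentage points (exact permutation test, p = 0.5). By V segment, *Trdv5* members held it in 11 of 21, 8 of 16 and 27 of 52 cases in IL-17neg and 3 of 13, 5 of 17 and 14 of 33 in IL-17pos samples. *Trdv1* members held it in 3 of 7, 7 of 10 and 17 of 28, then 6 of 13, 5 of 16 and 9 of 40. Among EGY members the shares were 40.0%, 52.6% and 54.0% in IL-17neg and 71.4%, 63.2% and 48.1% in IL-17pos samples, so those groups overlapped. Among RRD members they were 83.3%, 62.5% and 41.3%, then 62.5%, 56.5% and 46.9%, which also overlapped. The IL-17pos minus IL-17neg difference was 12.04 percentage points for EGY, -7.06 for RRD and 5.27 for all N-added *Trdd2* clonotypes other than GGI members. Whether these differences differ from that of the GGI members was not tested.

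The CDR3s of the members were 18.9, 18.5 and 18.5 amino acids long on average in IL-17neg 13-01, 20-01 and 27-01 and 18.8, 18.2 and 18.2 in the IL-17pos samples, with a median of 18 in every sample. Group means were 18.7 ± 0.252 (SD, n = 3) and 18.4 ± 0.392 (SD, n = 3), which overlapped (exact permutation test, p = 0.3). Their length differed from that of EGY members by 0.000460 amino acids on average, from -0.766 to 0.503 over the samples (exact permutation test, p = 1). Against RRD members they were 0.439 amino acids longer on average, in 4 of 6 samples (exact permutation test, p = 0.25). This value was 0.262 with at least 10 reads, 1.04 by reads and 0.263 without IL-17neg 13-01. The total number of inserted bases was 8.07 on average over the 6 samples, against 8.05 in EGY and 8.04 in RRD members. Against EGY the difference was 0.914, -0.880 and -0.00504 bases in IL-17neg and 1.68, -0.479 and -1.09 in IL-17pos samples, with a mean of 0.0231, and by the recount from germline segments its mean was -1.35 (exact permutation test, p = 0.21875). Against RRD the mean difference was 0.0337 bases, and 0.924 by reads (exact permutation test, p = 0.28125). The sign also differed between the samples against RRD. The GGI minus RRD difference was 4.14, -0.538 and 0.838 bases in IL-17neg and -0.771, -1.57 and -1.90 in IL-17pos samples. These values did not overlap, but they did with at least 2 or 10 reads, by reads and in the tables of the other read of each pair. RRD members had 7.01 ± 1.40 (SD, n = 3) inserted bases in IL-17neg and 9.08 ± 0.602 (SD, n = 3) in IL-17pos samples, and GGI members 8.49 ± 1.06 (SD, n = 3) and 7.66 ± 1.00 (SD, n = 3). This contrast was not among the comparisons tested.

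The use of the GGI frame by *Trdv1* and *Trdv5* differed by less than the spread of the samples. The members made up 34.1%, 31.4% and 29.6% of the N-added *Trdd2* clonotypes with *Trdv5* in IL-17neg 13-01, 20-01 and 27-01, and 37.0%, 26.7% and 27.6% in the IL-17pos samples. For *Trdv1* the values were 28.6%, 44.9% and 30.7%, then 34.8%, 27.5% and 33.6%. The mean within-sample difference was -2.30 percentage points, from -13.6 to 5.49 (exact permutation test, p = 0.5). It was -0.117 by reads, -0.644 with at least 10 reads and -3.63 with each shared clonotype counted only where most abundant. *Trdv5* held 75.2%, 46.3% and 53.7% of the member reads in IL-17neg and 45.5%, 56.1% and 58.3% in IL-17pos samples, with overlap between the groups (exact permutation test, p = 0.8). In the tables of the other read of each pair these shares were higher in every sample, at 90.1%, 56.8% and 71.8%, then 62.3%, 77.8% and 81.2%. By clonotypes *Trdv5* made up 63.3%, 50.8% and 47.1% of the members in IL-17neg and 34.7%, 45.9% and 43.9% in IL-17pos samples, without overlap (difference -12.2 percentage points; exact permutation test, p = 0.1, adjusted p = 0.45). Among the other N-added *Trdd2* clonotypes *Trdv5* made up 57.1%, 64.8% and 48.3%, then 32.6%, 47.0% and 50.9%, a difference of -13.3 percentage points with overlap. The difference between members and other clonotypes in this respect was not tested. *Trdv5* members had longer CDR3s than *Trdv1* members in 6 of 6 samples, by 0.899 amino acids on average (0.430 to 1.68; exact permutation test, p = 0.031, adjusted p = 0.0677). Counted by reads, this difference was 0.380 amino acids (exact permutation test, p = 0.40625), and in the tables of the other read 1.66 (exact permutation test, p = 0.031). The germline part of the CDR3 is 15 bases in *Trdv5* and 13 in *Trdv1*. V-D insertions were 1.22 bases longer with *Trdv5* on average, but in 5 of 6 samples and from -0.223 to 3.73 (exact permutation test, p = 0.125). This difference was 0.0430 bases by reads (exact permutation test, p = 0.96875) and 2.94 in the tables of the other read, in 6 of 6 samples (exact permutation test, p = 0.031, adjusted p = 0.0580). D-J insertions differed by -0.0156 bases (exact permutation test, p = 0.96875). Insertions at both joins were seen in 55.7% of *Trdv5* and 47.8% of *Trdv1* members, and V-D insertions alone in 30.6% and 41.8%.

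Reads were concentrated on few members in some samples and spread over many in others. The most abundant member held 21.6%, 13.4% and 3.45% of the member reads in IL-17neg 13-01, 20-01 and 27-01, and 9.20%, 8.60% and 4.72% in the IL-17pos samples. GGI-1 had 6587 reads in IL-17neg 20-01, 4.96% of the library (95% Wilson interval 4.84 to 5.08), and GGI-2 had 5175 in IL-17neg 13-01, 4.81% (4.68 to 4.94). The leading members of the IL-17pos samples were smaller, with 2800 reads for GGI-5 (2.84%), 1846 for GGI-6 (1.93%) and 1575 for GGI-8 (1.11%). GGI-10 led IL-17neg 27-01 with 893 reads (0.779%). The deposited counts are reads of PCR products, and the sources used here name no molecular identifiers, so these intervals cover counting error only. The inverse Simpson index of the members, which is larger when the reads are spread more evenly over more clonotypes, was 8.48, 13.3 and 66.9 in IL-17neg and 21.2, 21.1 and 60.5 in IL-17pos samples. The 27-01 samples were the most diverse in both groups, and the groups overlapped (29.6 ± 32.5 and 34.3 ± 22.7, SD, n = 3 each; exact permutation test, p = 0.6). The numbers of sorted cells, which bound these values, are not known.

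Most members were private to 1 sample. Of the 487, 427 (87.7%) were found in 1 sample, 53 in 2, 6 in 3 and 1 in 5, and none in all 6. Of the 1449 other clonotypes, 1289 (89.0%) were found in 1 sample. Of the 60 shared members, 46 were found in both IL-17 groups. Neither this count nor the sharing by pairs of samples is given here for the other clonotypes, so neither is read as a trait of the members. In 59 of the 60 shared members, only 1 sample reached 10 reads and no other sample had more than 4, with a median ratio between the highest and the next sample of 827 and a lowest ratio of 106. GGI-3 had 5334 reads in IL-17neg 20-01 (4.01%) and 1 read each in IL-17neg 27-01 and IL-17pos 20-01. GGI-4, the most widely found, had 4282 reads in IL-17neg 20-01 and 3, 1, 2 and 4 reads in IL-17neg 13-01, IL-17neg 27-01, IL-17pos 13-01 and IL-17pos 27-01. Whether such low counts come from cells of those samples or from the library in which the clonotype is abundant was not tested. IL-17neg 20-01 and IL-17pos 27-01 shared the most members, 24 (38.1% and 14.6% of their members), and the next pair, IL-17neg 13-01 and IL-17pos 13-01, shared 9. GGI-9 was the exception, with 691 reads in IL-17pos 13-01 (0.700%, 95% Wilson interval 0.650 to 0.754) and 156 in IL-17pos 27-01 (0.110%, 0.0938 to 0.128). It was not detected in the IL-17neg samples, where 3 reads, 0.00226% to 0.00279% of the library, is the limit that a count of 0 allows, nor in IL-17pos 20-01, where that limit is 0.00313%. GGI-9 has 3 inserted bases by the annotation, all on the V side, and joins an intact *Trdd2* to an untrimmed *Trdj1*. By the recount, 5 bases lie between complete *Trdv1* and *Trdd2*, and the same 5 bases occur in a row in *Trdd1*. Whether any of them is an N addition was not tested.

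The members with few reads were many but held few reads. Of the 487, 317 reached 10 reads in at least 1 sample and 170 in none. Clonotypes with at least 10 reads numbered 17, 20 and 107 in IL-17neg 13-01, 20-01 and 27-01 and 32, 37 and 105 in the IL-17pos samples, and those below held 0.0657% to 0.278% of the member reads. Over all samples, members were seen below 10 reads 238 times. In 68 of these cases the same clonotype had at least 10 reads in another sample. Of the other 170, 119 (70.0%) differed by at most 3 bases from a clonotype of the same sample, V segment and length with at least 10 reads, 7 by 1 base, 90 by 2 and 22 by 3. Among the 318 cases with at least 10 reads, 103 (32.4%) had such a neighbour. Whether the low-read members are sequencing or PCR variants of abundant clonotypes was not tested. With at least 10 reads, the motif context differed by a few percentage points, with germline GGI codons in 89.0%, isoleucine before in 58.4%, arginine after in 74.4% and IGGIR in 44.5%. The *Trdd1* stretch was held by 72 of 150 such members (48.0%).

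Some members encoded the same protein by different bases. The 487 members gave 457 CDR3 proteins, of which 26 had more than 1 nucleotide form and 4 had 3, the most seen. With at least 10 reads there were 303 proteins, 13 of them with more than 1 form. The most abundant protein with 3 forms was made by the following *Trdv1* sequences, each found in 1 sample, and shown because the same residues were read in different samples.
GGI-7 (2555 reads, IL-17neg 20-01): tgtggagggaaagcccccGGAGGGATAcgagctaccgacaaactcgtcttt
GGI-12 (323 reads, IL-17neg 27-01): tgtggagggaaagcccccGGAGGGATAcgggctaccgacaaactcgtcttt
GGI-14 (55 reads, IL-17pos 27-01): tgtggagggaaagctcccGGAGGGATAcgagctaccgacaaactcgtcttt
GGI-12 and GGI-14 each differ from GGI-7 by 1 base. Each of the forms is above 10 reads in its own library, so the protein was read in both IL-17 groups. Whether GGI-12 and GGI-14 are variants of GGI-7 carried between libraries was not tested.

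Joins without inserted bases can also read the GGI frame, and 48 clonotypes with 46 proteins did so in these tables. The proteins of 4 of them were also made by N-added members, so the overlap was 4 of 457 member proteins and 4 of 46 N-free proteins. The pair of members with at least 10 reads among these is shown.
GGI-11 (*Trdv5*, 514 reads, IL-17neg 27-01): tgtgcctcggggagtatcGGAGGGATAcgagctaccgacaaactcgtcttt
GGI-13 (*Trdv1*, 81 reads, IL-17pos 27-01): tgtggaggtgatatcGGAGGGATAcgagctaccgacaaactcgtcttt
The protein of GGI-11 had 393 reads as an N-free join, all in IL-17pos 27-01, and that of GGI-13 had 429, all in IL-17neg 27-01. In both cases the N-added and the N-free form lay in different IL-17 groups of the same number. The other 2 members, GGI-15 and GGI-16, had 1 read each, and their N-free forms had 239 and 208. These did not lie in different groups in this way. GGI-15 was found in IL-17neg 27-01 and its N-free form in IL-17neg 20-01. GGI-16 was found in IL-17pos 27-01, where its N-free form had 207 reads, with 1 more in IL-17neg 20-01.

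The other read of each pair gave a separate table. Of the *Trdv5* members with at least 10 reads, 140 of 143 sample records (97.9%) were found there, but only 80 of 175 with *Trdv1* (45.7%). By sample the *Trdv1* records found were 4 of 8, 10 of 10 and 27 of 55 in IL-17neg 13-01, 20-01 and 27-01, and 13 of 21, 8 of 22 and 18 of 59 in the IL-17pos samples. *Trdv1* members were found less completely than *Trdv5* members in 5 of 6 samples and as completely in IL-17neg 20-01. The *Trdd1* stretch was seen in 66.7%, 50.0% and 52.5% of IL-17neg and 28.6%, 23.1% and 38.2% of IL-17pos members with at least 5 V-D bases in these tables.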

How the data were processed

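RACE amplicons of *Trdv1* and *Trdv5* δ chains were sequenced as read pairs, and the authors annotated the reads with MiXCR (version not given in the sources used here) and wrote 1 clonotype table per read of the pair, 12 in all. The submitters' processing notes name mm10. The deposited counts are raw reads per clonotype, and the deposited fraction relates each count to the sum of its table. The fraction was not used. The deposited segment borders within the CDR3 gave the insertions, max(0, D start - V end - 1) and max(0, J start - D end - 1).

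The R1 tables, with 95803 to 142169 reads, were used throughout, without a minimum of reads per clonotype. Means over members count each clonotype once per sample, and shares of reads weight by reads. Segment sequences and positions were read from GRCm38 with its RefSeq annotation. The members and lists were chosen with earlier results of these data known.

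IL-17pos and IL-17neg samples were compared by their difference in means, with exact two-sided permutation p-values (20 assignments). Within-sample differences were tested by an exact two-sided sign-flip permutation test over the 6 samples (64 assignments). p-values were adjusted by Benjamini-Hochberg over the 9 and the 13 comparisons. The clonotypes named were the most abundant member of each sample, the 3 in most samples (among equals, those with the larger share of reads over all samples), those with at least 10 reads in 2 or more samples, those sharing their protein with a join without insertions, and the nucleotide forms of the protein with most forms. Numbers GGI-1 to GGI-16 follow their summed share of reads.

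Alternatives were the R2 tables, at least 2 or 10 reads, each shared clonotype only where most abundant, the other weight (reads or clonotypes), the sample number as a block, and leaving out each sample. Chosen after seeing the data were a recount of insertions from the germline segments, leaving out members with *Trdd1* bases, and the share of members with *Trdd1* bases with its settings. Intervals are Wilson intervals at 95%, and the limit for a count of 0 is 3 counts of the total. Python 3.11.15, NumPy 2.4.6, pandas 2.3.3 and SciPy 1.17.1 were used.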

Additional observations from a re-analysis of the deposited data

How the results depend on the processing

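No difference between the IL-17 groups passed 0.05 under any setting, which 3 against 3 samples does not allow. Apart from leaving out samples, 128 of 150 values under an alternative kept their direction and 22 reversed, and of the 138 values that leave out 1 sample, 117 kept it and 21 reversed. The 150 include the sample number as a block, which leaves each value unchanged by construction and could not reverse it. In the R2 tables the IL-17pos minus IL-17neg difference reversed for the GGI share of N-added *Trdd2* reads (0.0568), of clonotypes (0.425), the *Trdv5* share of GGI reads (0.860), the bases assigned to *Trdd2* (0.0989) and the inverse Simpson index (-0.849). The within-sample differences in inserted bases also reversed there against EGY (-0.165) and RRD (-0.236), and between *Trdv5* and *Trdv1* at the D-J join (0.157). With at least 2 reads the GGI share of clonotypes (0.183), the length against EGY (-0.160) and the insertions against EGY (-0.341) and RRD (-0.227) reversed. With at least 10 reads the length against EGY (-0.143), the insertions against EGY (-0.388) and RRD (-0.381) and the *Trdv5* minus *Trdv1* D-J insertions (0.00705) did. Counting shared clonotypes only where most abundant reversed the length (-0.233) and insertions (-0.297) against EGY, and weighting by reads the insertions against EGY (-0.00455). The recount from germline segments, which counts germline V or J bases beyond a mismatch as inserted, gave -1.35 against EGY and -0.000114 against RRD. Without members with *Trdd1* bases, V-D insertions differed between the IL-17 groups by 0.395 in place of -0.514, and the V-D minus D-J difference was 2.07 in place of 4.02. Both follow in part from the setting, which removes only members with at least 5 V-D bases. With shared clonotypes only where most abundant, the IL-17 group difference in V-D insertions was -1.28 (exact permutation test, p = 0.2). The cause of the other reversals was not tested.

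Leaving out 1 sample in turn moved the group difference from -4.40 to 3.11 for the GGI share of reads, -4.56 to 4.50 for that of N-added *Trdd2* reads, -2.20 to 1.51 for that of clonotypes, -11.1 to 3.30 for the *Trdv5* share and -8.40 to 23.4 for the inverse Simpson index. It moved the length against EGY from -0.100 to 0.154, the insertions from -0.308 to 0.246 against EGY and -0.788 to 0.420 against RRD, and the *Trdv5* minus *Trdv1* D-J insertions from -0.141 to 0.0941. Without a change of sign it moved the group difference from -0.854 to -0.0435 for V-D insertions, -0.475 to -0.0165 for D-J insertions, -0.492 to -0.121 for CDR3 length, and -0.432 to -0.0395 for the bases assigned to *Trdd2*, the length against RRD from 0.263 to 0.652, the *Trdv5* minus *Trdv1* GGI use from -3.86 to -0.0485 and V-D insertions from 0.716 to 1.51. The difference in the *Trdd1* share stayed between -24.2 and -20.4 percentage points. Whether the shared sample numbers pair the samples is not known: the labels do not say, and the correlations of their deviations over 9 measures were -0.206, -0.666 and 0.524 for 13-01, 20-01 and 27-01, so the samples were not treated as pairs. With the number as a replicate block the *Trdd1* share differed by -22.1 with p = 0.25 (exact permutation test), the smallest that its 8 assignments allow, and the within-sample differences with p = 0.031 over 6 samples (exact permutation test) also gave 0.25. A clonotype without a read could hold up to 3 reads, 0.00211% to 0.00313% of a library. The number of sorted cells is not known.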

Other observations

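The 15 N-added *Trdd2* clonotypes with more than 1 of the 3 motifs, which are not among the GGI members, held 4464 reads in all. GGI was present in 14 of them. By sample they numbered 1, 2 and 6 in IL-17neg 13-01, 20-01 and 27-01, and 3, 1 and 5 in the IL-17pos samples. Of the GGI members themselves, 14 read the residues GGI more than once.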
